A study of Mus musculus with 4 samples.

Results

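The genes described here build the machinery that brings proteins into mitochondria and folds them there. They were taken from the array's annotation as every probe set (the group of probes that reads 1 transcript) with exactly 1 gene symbol, where that symbol starts with Tomm or Timm or is Pam16, Dnajc19, Grpel1, Grpel2, Hspa9, Hspd1, Hspe1, Pmpca, Pmpcb or Chchd4. This gave 44 of 35556 probe sets, which stand for 35 of 19939 genes. The rule reads only the symbols and no measured value, though the gene set was picked with earlier results of these data known. The genes fell into 9 of the outer membrane, 7 of the intermembrane space, 10 of the inner membrane and 7 of the matrix. The other 2 match by name only: Tomm34 encodes a cytosolic co-chaperone and Timmdc1 an assembly factor of respiratory complex I. Timm10b was on 1 probe set that also carries another gene's symbol and was not analysed here.

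The data are 4 arrays of the Affymetrix Mouse Gene 1.0 ST type, 2 for each genotype. All mice carried Mx1Cre, a Cre recombinase under an interferon-responsive promoter that is active in blood cells and in other tissues. Controls were Mx1Cre-GABPa(FL/+), with 1 floxed and 1 intact allele of Gabpa, and the other group was Mx1Cre-GABPa(FL/-), with 1 floxed and 1 null allele, labelled GABPα-deficient. Every animal was 6 to 8 weeks old, had been backcrossed to C57/BL6 for 4 rounds, and received pIpC, a double-stranded RNA analogue that induces Mx1Cre. At 4 days after the last dose, bone marrow cells were sorted as Flt3(-) LSK, cells without mature lineage markers that carry Sca-1 and c-Kit and include the blood stem cells. Whether a sample was 1 animal or several is not given in the labels, nor that replicates came from separate animals, so a p-value here reflects only how far these samples lie apart, which may be technical.

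Nearly all mitochondrial proteins are encoded in the nucleus and made in the cytosol. Precursors are recognised by receptors of the outer membrane TOM complex and pass its pore. Carrier proteins are then escorted across the intermembrane space by small TIM chaperones to the TIM22 complex, whereas proteins with a presequence enter the matrix through the TIM23 complex, pulled by a motor built around the chaperone mortalin. The presequence is cut off in the matrix and the protein folds with the help of the HSP60 and HSP10 chaperonins. GABP, also called nuclear respiratory factor 2, is an ETS-family transcription factor known for its binding sites at many nuclear genes of mitochondrial proteins.

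The promoter windows of 6 genes that the values below turn on are shown first, since the deleted factor is a DNA-binding protein with a well-known core site. RefSeq windows (250 bases before to 50 after an annotated start, GRCm38.p6) were found for 30 of the 35 genes. They were searched on both strands for the ETS core CCGGAAG, whose reverse is CTTCCGG. A match on each strand can overlap in the palindromic centre and then counts as 2 matches. The core was present in 15 of 33 member windows (45.5%), against 8.86% of all 32851 windows and 11.6% of the 21263 windows of protein-coding genes. A match to these letters is a description and not a binding site. Tomm70a is printed as the outer membrane gene that was lower on the arrays labelled deficient, Tomm22 and Timm10 as genes that were higher and carry the core, and Tomm5 and Tomm20 as the genes with the smallest unadjusted p, whose windows hold no match. Hspe1 is printed because its window also covers the start of Hspd1. Capitals mark the ETS core on either strand, and each sequence runs 5′ to 3′ along the strand of its gene.
Tomm70a (GRCm38.p6, chr16:57121464-57121763, plus strand): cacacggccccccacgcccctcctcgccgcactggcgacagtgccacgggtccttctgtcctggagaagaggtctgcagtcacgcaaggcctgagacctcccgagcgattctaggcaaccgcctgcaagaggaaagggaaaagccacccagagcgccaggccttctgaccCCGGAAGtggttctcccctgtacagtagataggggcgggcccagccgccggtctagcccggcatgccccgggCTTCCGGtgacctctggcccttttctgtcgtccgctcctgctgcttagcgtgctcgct
Tomm22 (GRCm38.p6, chr15:79670618-79670917, plus strand): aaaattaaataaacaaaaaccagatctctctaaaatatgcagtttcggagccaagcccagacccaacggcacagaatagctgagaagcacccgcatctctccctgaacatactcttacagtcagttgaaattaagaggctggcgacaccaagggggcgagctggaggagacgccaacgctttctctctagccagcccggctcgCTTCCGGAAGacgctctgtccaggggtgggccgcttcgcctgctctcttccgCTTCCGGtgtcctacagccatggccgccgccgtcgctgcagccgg
Timm10 (GRCm38.p6, chr2:84826771-84827070, plus strand): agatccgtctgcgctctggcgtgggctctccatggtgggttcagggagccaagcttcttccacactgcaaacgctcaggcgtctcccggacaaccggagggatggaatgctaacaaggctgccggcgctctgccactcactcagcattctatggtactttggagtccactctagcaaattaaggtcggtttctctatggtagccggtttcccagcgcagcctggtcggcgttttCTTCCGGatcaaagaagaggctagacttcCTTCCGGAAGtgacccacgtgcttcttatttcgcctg
Tomm5 (GRCm38.p6, chr4:45108064-45108363, minus strand): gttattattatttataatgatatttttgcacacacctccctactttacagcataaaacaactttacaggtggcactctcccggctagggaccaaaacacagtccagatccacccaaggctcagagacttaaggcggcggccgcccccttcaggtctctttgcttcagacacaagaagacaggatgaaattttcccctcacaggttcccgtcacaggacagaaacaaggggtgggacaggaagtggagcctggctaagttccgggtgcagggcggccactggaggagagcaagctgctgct
Tomm20 (GRCm38.p6, chr8:126945872-126946171, minus strand): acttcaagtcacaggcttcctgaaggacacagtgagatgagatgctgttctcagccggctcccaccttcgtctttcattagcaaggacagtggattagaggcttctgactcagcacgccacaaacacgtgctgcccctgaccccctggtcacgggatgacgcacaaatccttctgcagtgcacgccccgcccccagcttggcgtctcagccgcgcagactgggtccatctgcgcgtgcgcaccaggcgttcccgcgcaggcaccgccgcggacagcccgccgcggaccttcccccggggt
Hspe1 (GRCm38.p6, chr1:55087898-55088197, plus strand): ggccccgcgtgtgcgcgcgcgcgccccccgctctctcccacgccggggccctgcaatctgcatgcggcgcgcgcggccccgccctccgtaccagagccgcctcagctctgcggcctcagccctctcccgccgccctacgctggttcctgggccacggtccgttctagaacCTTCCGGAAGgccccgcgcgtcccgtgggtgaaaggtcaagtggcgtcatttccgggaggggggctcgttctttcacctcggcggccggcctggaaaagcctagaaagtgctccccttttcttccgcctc

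The window of Tomm70a holds 2 matches, those of Tomm22 and Timm10 hold 3 each, and that of Hspe1 holds 2 that overlap. The Hspe1 window shares 285 bases with a window of Hspd1 on the opposite strand, since both genes start from 1 divergent promoter. The 14 member genes with a match had a median log2 difference of 0.26, from −1.07 to 0.86, and 10 of them lay above 0. The 16 genes without a match had a median of 0.36 and all 16 lay above 0. Timm21, Hspa9, Tomm40l, Tomm7 and Grpel2 had no window and were not searched. Of these, Timm21 and Hspa9 lay below 0 (−1.32 and −0.30). The genes below 0 with a match were Tomm70a, Hspd1, Tomm34 and Timmdc1, of which Tomm34 and Timmdc1 match the rule by name only. Genes with the core were thus found among the lowest and among the high members.

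With limma fitted over every probe set, 0 of 35556 probe sets, and 0 of the 35 import genes, passed a Benjamini-Hochberg adjusted p under 0.05. The counts that follow therefore use an unadjusted p under 0.05. Differences are log2 values, mean of the arrays labelled deficient minus mean of the controls, with limma's standard error (SE). Among the import genes 6 were higher at an unadjusted p under 0.05, where 6.64% of all probe sets and 6.99% of all genes were, and 1 was lower, where 5.25% of probe sets and 6.36% of genes were. After cyclic loess, a level-dependent rescaling of the arrays, 7 import genes were higher and 1 lower, while the shares turned to 3.35% higher and 6.61% lower over all probe sets, and to 3.53% and 7.75% over all genes. The higher count changed as each array was left out, and rose only without deficient replicate 2. The lower count rose when either array labelled deficient was left out. No share over all genes was taken for those fits, so these changes cannot be called particular to the import genes.

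Of the 35 genes 29 had a difference above 0, against 67.6% of all genes. The median difference was 0.34, where the median of all genes was 0.16. The import gene median was 0.22 without deficient replicate 1 and 0.52 without deficient replicate 2, where that of all genes was 0.155 and 0.154. Loess took the median of all genes to −0.00078 and left that of the import genes at 0.27, with 29 again above 0, against 49.9% of all genes. The groups did not overlap, deficient higher, for 18 import genes, as for 38.9% of all probe sets and 42.9% of all genes. They did not overlap in the other direction for 1 import gene, as for 14% of probe sets and 15.2% of genes. In mean level 34 of the import genes were brighter than the median probe set, as were 11290 of all genes. Of these, 28 import genes and 6246 of all genes lay above 0, with medians of 0.33 and 0.072. The groups did not overlap, deficient higher, for 17 of the 34 and 3681 of the 11290, and deficient lower for 1 and 2500.

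The other RNA on these arrays differed too. All 7 measured markers of stem and progenitor cells had differences below 0, 6 of them at an unadjusted p under 0.05. This list counts Flt3, although the gate excludes it. The mean log2 level was 8.93 and 8.87 in the controls against 6.63 and 6.96. All 8 measured erythroid markers had differences above 0, 7 of them at that threshold, with a mean of 6.88 and 6.97 against 8.79 and 9.08. All 9 macrophage markers had differences above 0, 5 at that threshold and 3 with overlapping groups, with a mean of 6.26 and 6.44 against 8.14 and 7.26. Of the 9 stromal and endothelial markers 8 lay above 0, 5 at that threshold, with a mean of 6.03 and 6.11 against 7.19 and 7.02. All 4 measured megakaryocyte markers lay below 0, 3 at that threshold, with a mean of 8.61 and 8.99 against 7.54 and 6.95. Of 8 granulocyte and monocyte markers 5 lay above 0, with 0 higher and 1 lower at that threshold. All 4 measured B cell markers lay above 0, 1 at that threshold. Of 5 measured T and NK cell markers 4 lay above 0, 1 at that threshold. Over all genes 67.6% lay above 0, and at that threshold 6.99% were higher and 6.36% lower. Kit, a receptor of the sorting gate, differed by −2.11 (SE 0.32, limma adjusted p = 0.288), and Flt3, the receptor excluded by the gate, by −3.03 (SE 0.35, adjusted p = 0.222). Flt3 read 8.43 and 9.26 in the controls and 5.68 and 5.95 in the group labelled deficient. Gabpa itself read 8.43 and 7.28 in the controls and 6.43 and 7.85 in the group labelled deficient, so its probe set did not separate the groups. Whether that probe set reads the deleted part is not known here, and how complete the deletion was in either group was not tested. In bulk RNA, fewer cells of a type and less RNA per cell cannot be told apart. The part of these other cell types in the values below was not tested.

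In the outer membrane 8 of 9 genes had a difference above 0, and the receptor Tomm70a had one below 0. The median difference over the 9 genes was 0.55 (0.51 after loess). The groups did not overlap for any of the 9, with 8 higher and 1 lower, where 42.9% and 15.2% of all genes were. At an unadjusted p under 0.05, 4 were higher and 1 lower, where 6.99% and 6.36% of all genes were. Adjusted p ran from 0.271 to 0.502.

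Tomm5, a small subunit of the TOM complex, had the largest positive difference among the 35 genes. It read 9.80 and 9.65 in the controls and 11.08 and 10.85 in the group labelled deficient. Both arrays labelled deficient lay above both controls by more than either group's own spread. The means were 9.73 ± 0.11 (SD, n = 2) and 10.96 ± 0.16, a difference of 1.24 (SE 0.17, 2.36-fold, limma adjusted p = 0.271).

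Tomm20, the receptor for presequences, read 9.17 and 9.20 in the controls and 10.12 and 10.23 in the group labelled deficient. The replicates lay close together in both groups. The difference was 0.99 (SE 0.14, 1.98-fold, limma adjusted p = 0.279). A further Tomm20 probe set read 9.21 and 9.16 against 9.98 and 10.02, a difference of 0.82 (SE 0.14), so the pair had the same direction. The first of these is numbered among probe sets of another chromosome and the further one among those of the gene's own, so the first may read a near-identical copy.

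Tomm6, another small TOM subunit, read 9.86 and 9.94 in the controls and 10.64 and 10.53 in the group labelled deficient (difference 0.68, SE 0.14, 1.60-fold, limma adjusted p = 0.352). Tomm22, the central receptor that organises the complex, read 7.98 and 7.72 against 9.04 and 8.39 (difference 0.86, SE 0.29, adjusted p = 0.413). For Tomm22 the arrays labelled deficient stood 0.66 apart, more than the control arrays, and replicate 1 was the higher. Its single probe set lies in number among probe sets of another chromosome than the one that carries the gene, so it may read a processed copy.

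Tomm40, the pore itself, read 8.14 and 8.37 in the controls and 8.78 and 8.45 in the group labelled deficient. The nearest arrays of the 2 groups were almost level, and the difference was 0.36 (SE 0.20, limma adjusted p = 0.467). Tomm7, the third small subunit, differed by 0.29 (SE 0.15). Tomm40l, a relative of the pore protein, differed by 0.55 (SE 0.36), with 7.31 on control replicate 1 against 8.23 to 8.36 on the other arrays. Without control replicate 1 that difference was 0.092. Tomm20l, a relative of the presequence receptor, differed by 0.31 (SE 0.14), or 0.16 after loess.

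Tomm70a encodes the receptor that takes hydrophobic precursors, such as metabolite carriers, from the cytosolic chaperones HSP70 and HSP90. It read 8.92 and 8.39 in the controls and 7.55 and 7.63 in the group labelled deficient. Both arrays labelled deficient lay below both controls, and the controls were the more scattered pair. The difference was −1.07 (SE 0.24, limma adjusted p = 0.365), or 0.478 times the control level, and it ran from −1.33 to −0.80 as each array was left out.

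**Figure D1:**
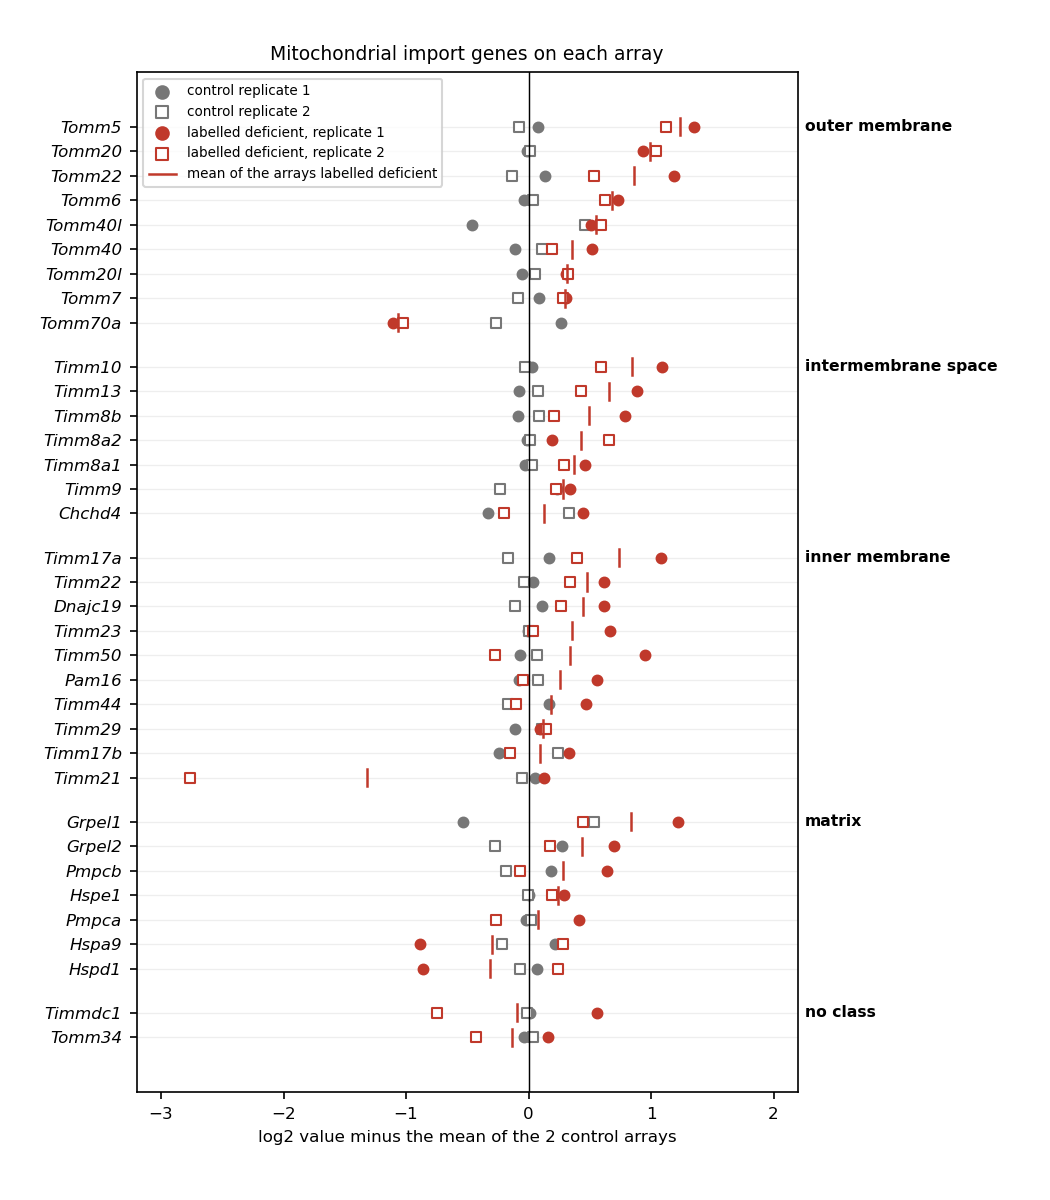
Each row is 1 import gene, and the x axis is its log2 value minus the mean of the 2 control arrays; grey points are control arrays, red points arrays labelled deficient (filled, replicate 1; open, replicate 2) and red bars the mean of the latter. Tomm5, Tomm20 and Tomm6 show both red points to the right of the grey ones and Tomm70a both to the left, while the red points of Timm21, Hspa9 and Hspd1 lie far apart.

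In the intermembrane space all 7 genes had a difference above 0, with a median of 0.43 (0.33 after loess). The groups did not overlap, deficient higher, for 5 of them, as for 42.9% of all genes. At an unadjusted p under 0.05, 2 were higher, as were 6.99% of all genes. Adjusted p ran from 0.400 to 0.868. The 6 measured small TIM chaperones had a median difference of 0.46.

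Timm10, which with Timm9 forms the ring that carries hydrophobic precursors, read 9.93 and 9.87 in the controls and 10.99 and 10.49 in the group labelled deficient (difference 0.84, SE 0.23, 1.79-fold, limma adjusted p = 0.400). Its partner Timm9 read 7.26 and 6.80 against 7.37 and 7.25, and the groups overlapped (difference 0.28, SE 0.22). Timm13, the partner of the Timm8 proteins, read 10.18 and 10.34 against 11.15 and 10.69 (difference 0.66, SE 0.22, limma adjusted p = 0.414). The higher array labelled deficient was replicate 1 for each of these 3 chaperones.

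Timm8b differed by 0.50 (SE 0.26). Timm8a1, the mouse counterpart of the gene of the deafness-dystonia syndrome, differed by 0.37 (SE 0.15) on its brighter probe set and by 0.51 (SE 0.16) on the other. Timm8a2 lay in the dimmer 50% of probe sets, at 3.92 and 3.95 against 4.13 and 4.59. Chchd4, the oxidoreductase known as MIA40 that traps small TIM proteins by disulfide bonds, read 8.48 and 9.14 in the controls and 9.25 and 8.61 in the group labelled deficient. Its groups overlapped and the difference was 0.12 (SE 0.36, limma adjusted p = 0.868).

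In the inner membrane 9 of 10 genes had a difference above 0, with a median of 0.30 (0.25 after loess). None reached an unadjusted p under 0.05 (lowest adjusted p 0.421), though Timm22 did after loess (limma unadjusted p = 0.0363). The groups did not overlap for 4 of the 10, all deficient higher, which is near the 42.9% of all genes. The median rested on deficient replicate 1: without it the median was −0.0026, and without deficient replicate 2 it was 0.59. For the outer membrane the same medians were 0.54 and 0.52. Without control replicate 1 or control replicate 2 the outer membrane median was 0.38 or 0.72, and that of the inner membrane 0.31 or 0.34. A difference between the classes was not tested.

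Among the channel genes of the TIM23 complex, Timm17a differed by 0.74 (SE 0.31, limma adjusted p = 0.428), with 10.15 and 9.82 in the controls and 11.06 and 10.38 in the group labelled deficient. Timm17b, its X-linked relative, differed by 0.092 (SE 0.28) and its groups overlapped. Timm23, the channel subunit, read 10.60 and 10.61 in the controls and 11.27 and 10.64 in the group labelled deficient. Deficient replicate 2 was thus level with the controls and replicate 1 above them (difference 0.35, SE 0.26, adjusted p = 0.535). The 4 Timm23 probe sets gave differences from 0.28 to 0.35, and 2 of them hold identical values.

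Timm50, the receptor that receives presequences from TOM, read 9.27 and 9.41 in the controls and 10.29 and 9.07 in the group labelled deficient. The arrays labelled deficient lay on either side of the controls (difference 0.34, SE 0.47, limma adjusted p = 0.709). Timm44, which ties mortalin to the channel, read 9.12 and 8.78 against 9.42 and 8.85 (difference 0.18, SE 0.27). Of the J-protein pair of the import motor, Dnajc19 differed by 0.44 (SE 0.20) and its inhibitory partner Pam16 by 0.26 (SE 0.26).

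Timm21, a TIM23 subunit that contacts the TOM complex, had the widest spread of the 35 genes. It read 9.39 and 9.28 in the controls and 9.47 and 6.57 in the group labelled deficient. The difference of −1.32 (SE 1.06, limma adjusted p = 0.556) came from deficient replicate 2, and without it the difference was 0.13. In the TIM22 carrier complex, the channel gene Timm22 differed by 0.48 (SE 0.17, adjusted p = 0.421) with no overlap, and its partner Timm29 by 0.12 (SE 0.16) with overlap.

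In the matrix 5 of 7 genes had a difference above 0, with a median of 0.24 (0.22 after loess). The median was 0.0998 without control replicate 2 and 0.41 without deficient replicate 2, where that of all genes was 0.21 and 0.154. None reached an unadjusted p under 0.05, and adjusted p ran from 0.476 to 0.898. The groups did not overlap for 1 gene, Hspe1, with deficient higher, as for 42.9% of all genes.

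Hspa9 encodes mortalin, the HSP70 of the import motor. It read 11.05 and 10.62 in the controls and 9.95 and 11.12 in the group labelled deficient. Deficient replicate 1 was the lowest array and replicate 2 the highest (difference −0.30, SE 0.47, limma adjusted p = 0.746). Without deficient replicate 1 the difference was 0.29, and without replicate 2 it was −0.89. Its exchange factors Grpel1 and Grpel2 had differences of 0.83 (SE 0.50) and 0.44 (SE 0.31), and their groups overlapped.

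Hspd1, the chaperonin HSP60, read 11.70 and 11.56 in the controls and 10.77 and 11.87 in the group labelled deficient (difference −0.31, SE 0.43, limma adjusted p = 0.709). Its other probe set, the one numbered among neighbours of the gene's own chromosome, gave −0.25 (SE 0.40). The order over the arrays labelled deficient was that of Hspa9, and the sign also turned without deficient replicate 1 (0.24). Hspe1, the co-chaperonin HSP10 that shares the divergent promoter printed above, read 12.24 and 12.24 in the controls and 12.53 and 12.43 in the group labelled deficient. Its groups did not overlap and its difference was 0.24 (SE 0.14, limma adjusted p = 0.476). The 2 chaperonin genes thus had values of opposite sign, and the difference between them was not tested.

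Pmpcb, the catalytic subunit of the peptidase that removes presequences, read 9.85 and 9.48 in the controls and 10.31 and 9.60 in the group labelled deficient (difference 0.29, SE 0.32, limma adjusted p = 0.653). Its partner Pmpca differed by 0.075 (SE 0.28), or −0.0056 with column medians subtracted. The groups overlapped for both subunits. Outside the classes, Tomm34 differed by −0.13 (SE 0.25) and Timmdc1, whose window holds 4 ETS cores, by −0.093 (SE 0.49).

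The arrays labelled deficient differed from each other across most of this machinery. Deficient replicate 1 was above replicate 2 for 27 of the 35 genes, by a median of 0.46, where the median over all genes was −0.019. The control arrays differed by a median of −0.013. The gap was 0.019 for the outer membrane, 0.46 for the intermembrane space, 0.59 for the inner membrane and 0.52 for the matrix. Hspa9 and Hspd1 ran the other way, by −1.17 and −1.11. Of the 9 macrophage markers 7 were higher on deficient replicate 1, and the median gap was 0.83. Of the 8 erythroid markers 4 were, with a median gap of 0.0087 but single gaps from −3.11 (Slc4a1) to 1.09 (Epor). How these gaps relate to those of the import genes was not tested. Leaving out deficient replicate 1 turned the sign for 9 of 35 genes: Chchd4, Pam16, Timm17b, Timm44, Timm50, Hspa9, Hspd1, Pmpca and Pmpcb. Leaving out deficient replicate 2 turned it for Timm21, Timmdc1 and Tomm34. Without control replicate 1 it turned for Chchd4 (−0.21) and Timm17b (−0.15), and without control replicate 2 no sign turned.

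**Figure D2:**
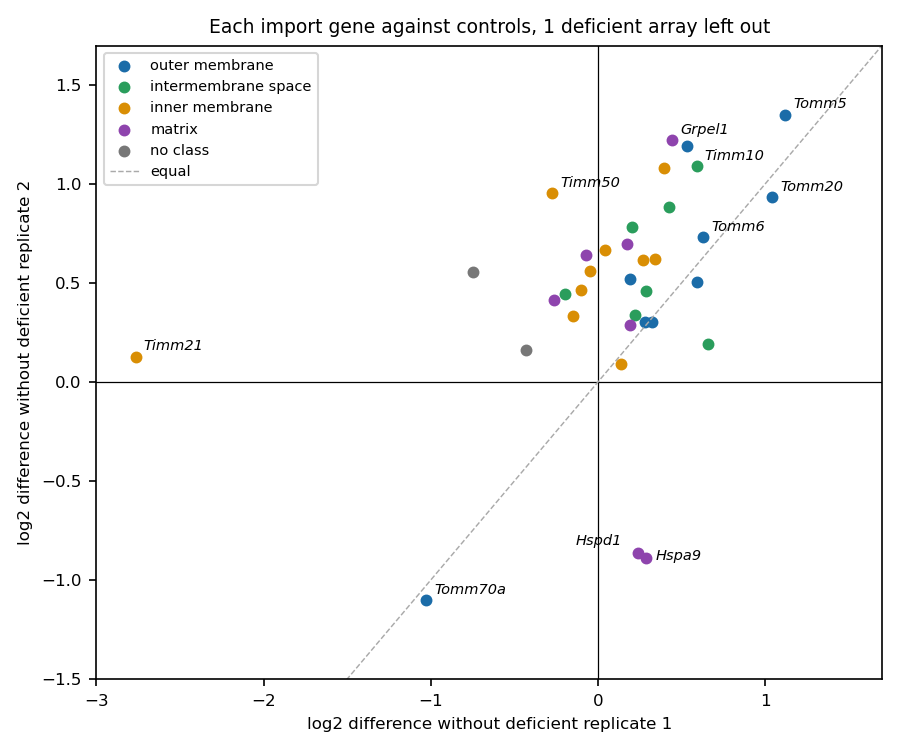
Each point is 1 import gene, coloured by class, with its log2 difference from the controls without deficient replicate 1 on the x axis and without deficient replicate 2 on the y axis; the dashed line marks equal values. Tomm5, Tomm20, Tomm6 and Tomm70a lie near the line, most inner membrane and matrix genes lie above it, Timm21 sits far to the left and Hspa9 and Hspd1 below 0 on the y axis alone.

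Other genes of import and of protein quality control in the organelle were read from a list of 35, of which 31 were measured. In limma's fit 0 passed the adjusted threshold, and at an unadjusted p under 0.05 5 were higher and 0 lower, where 6.99% and 6.36% of all genes were. The higher count fell as each array but deficient replicate 2 was left out. Both counts rose without deficient replicate 2. No share over all genes was taken for those fits. Of the 31 genes 20 had a difference above 0, against 67.6% of all genes. The median was 0.30, but 0.056 without deficient replicate 1, 0.45 without deficient replicate 2, and 0.16 and 0.20 without control replicates 1 and 2. The median of all genes was 0.16, and in those fits 0.155, 0.154, 0.12 and 0.21. After loess 18 of the 31 genes lay above 0, against 49.9% of all genes, with a median of 0.24.

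Htra2, a protease of the intermembrane space, had the largest difference of this list. It read 9.71 and 9.46 in the controls and 11.30 and 10.82 in the group labelled deficient (difference 1.48, SE 0.24, limma adjusted p = 0.294). Phb2, a prohibitin that scaffolds inner membrane proteases, read 10.72 and 10.73 against 11.66 and 11.27 (difference 0.74, SE 0.20, limma adjusted p = 0.397). Mtx1, a metaxin of the outer membrane sorting machinery, read 8.59 and 8.96 against 9.86 and 9.39 (difference 0.85, SE 0.26, limma adjusted p = 0.408). Cox17, a copper chaperone imported through the MIA40 pathway, read 11.41 and 11.06 against 11.98 and 11.82 (difference 0.67, SE 0.19, limma adjusted p = 0.407). Mipep, a presequence peptidase of the matrix, read 8.20 and 7.98 against 8.71 and 8.50 (difference 0.51, SE 0.17, limma adjusted p = 0.414). The groups of these 5 genes did not overlap, and deficient replicate 1 was the highest array for each.

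Samm50, the channel that inserts barrel proteins into the outer membrane, differed by 0.37 (SE 0.21), and Gfer, the oxidase that renews MIA40, by 0.49 (SE 0.24). The pore genes Vdac1, Vdac2 and Vdac3 had values of 0.0096 (SE 0.16), 0.23 (SE 0.15) and −0.13 (SE 0.15). The groups overlapped for Vdac1 but not for Vdac2, with deficient higher, nor for Vdac3, with deficient lower. All 4 measured cytosolic chaperones that deliver precursors had differences below 0, with a median of −0.37. This rested on deficient replicate 1, without which the median was 0.038 and Dnaja1 alone lay below 0. The value was −0.87 (SE 0.41) for Dnaja1, a co-chaperone of HSP70, and −0.69 (SE 0.80) for Hsp90aa1, and for all 4 deficient replicate 1 was below replicate 2. Yme1l1, the inner membrane protease that faces the intermembrane space, read 7.48 and 6.26 in the controls and 4.82 and 6.17 in the group labelled deficient (difference −1.37, SE 0.67, limma adjusted p = 0.447).

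**Figure D3:**
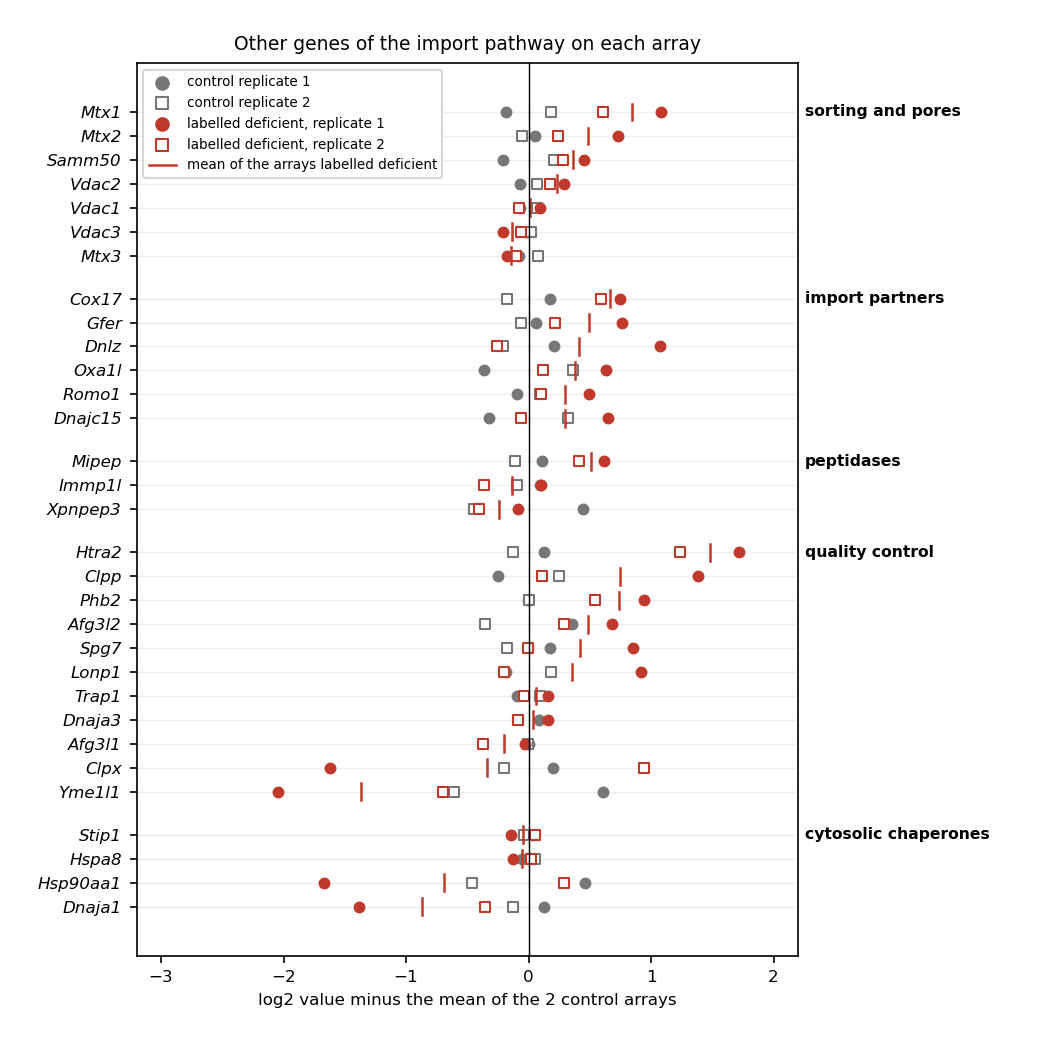
Each row is 1 of the 31 other pathway genes, plotted as log2 value minus the mean of the 2 control arrays, with grey control points and red points for arrays labelled deficient (filled, replicate 1; open, replicate 2) and red bars for their mean. Htra2, Phb2, Mtx1, Cox17 and Mipep show both red points to the right of the grey ones, and Yme1l1, Clpx, Hsp90aa1 and Dnaja1 show the filled red point far to the left.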

How the data were processed

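The deposited log2 expression values, 1 per probe set and array, were used as the authors gave them. The submitters' processing notes name RMA, which subtracts background, equalises the arrays by quantiles and joins probes into probe sets, and Partek, with no versions. Their genome build is not stated in those notes. No read depth exists for arrays, and the number of arrays, 2 per group, limits the precision. RNA input is given only as a range, 800 pg to 50 ng, the same for every array. Its part in the gaps between single arrays was not tested. All 4 columns matched a sample.

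Probe sets were named from the platform annotation where it gave 1 symbol (21789 of 35556; 1621 had several and 12146 none). Symbols were updated by Entrez number through RefSeq (GRCm38.p6), which held 21698 of them. The probe set with the highest mean stood for a gene. On 9 of the 44 member probe sets, most of the 5 named neighbours in number on each side lay on another chromosome than the gene (96.9% of all named probe sets matched), and 4 of these stood for their gene: Tomm20, Tomm22, Pam16 and Hspd1. Such probe sets may read near-identical copies.

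Limma 3.58.1 in R 4.3.3 (lmFit, eBayes, genotype only) was fitted on the whole table, with Benjamini-Hochberg adjustment over all probe sets, and tested on simulated data. Figures used matplotlib 3.10.9. Alternatives were cyclic loess, median subtraction, a filter on dim probe sets, limma's trend with robust priors, a replicate block, the mean of a gene's probe sets, leaving out each array and, chosen after seeing the data, the probe set on the gene's own chromosome. Values on every array are given for genes at an unadjusted p under 0.05 and for 12 subunits of set roles. Other genes, among them Timm21, Yme1l1, Dnaja1 and the remaining members, were described after their values were seen. The members, lists and alternatives were chosen with earlier results of these data known.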

Additional observations from a re-analysis of the deposited data

How the results depend on the processing

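The adjusted-threshold counts stayed at 0 under every alternative run, for all probe sets, the import genes and the other pathway genes. The number of import genes higher at an unadjusted p under 0.05 was 6 and ran from 2 to 11 with 1 array left out, and the number lower was 1 and ran from 1 to 2. For the other pathway genes the higher count of 5 became 3 with column medians subtracted, with limma's trend and robust priors, and with the replicate block, and ran from 1 to 9 with 1 array left out. Their lower count of 0 became 1 after cyclic loess and ran from 0 to 3 with 1 array left out. The inner membrane median of 0.30 ran from −0.0026 to 0.59 with 1 array left out. The medians of the outer membrane, intermembrane space and matrix stayed above 0 under each alternative. That of the outer membrane, 0.55, ran from 0.38 to 0.72 with 1 array left out. That of the matrix, 0.24, was 0.0998 without control replicate 2 and 0.41 without deficient replicate 2. The median of all genes was also above 0, at 0.21 and 0.154 in those fits, so the matrix median lay below it in the first. The cause of these shifts was not tested, beyond the fewer samples in a fit with an array left out. The correlation of same-numbered deviations over all probe sets was −0.088. With 2 arrays per group, this cannot show whether same-numbered arrays were handled together. A replicate block left the import gene counts at 6 and 1. With the probe set on the gene's own chromosome they were also 6 and 1. No detection calls were used, so what background limits for the dim Timm8a2 is not known.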

Other observations

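The partners of a matrix protease had opposite orders on the arrays labelled deficient. Clpp, the proteolytic subunit, read 9.81 on deficient replicate 1 and 8.53 on replicate 2, against 8.17 and 8.67 in the controls. Clpx, its unfolding partner, read 4.77 and 7.34, against 6.597 and 6.196. Both were named after their values were seen.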
